A study of Saccharomyces cerevisiae with 12 samples.

Results

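Msn2 and Msn4 are related zinc finger transcription factors of budding yeast that switch on a broad programme of stress genes. They stay in the cytoplasm while protein kinase A is active in well-fed cells, and they enter the nucleus under stress or nutrient shortage. There they bind the stress response element, STRE, with the core AGGGG, and many of the genes they activate are also induced as cells enter quiescence, the resting state of starved cells. The genes described here were chosen by identifier and are 8 of the 6660 features counted. They are the 2 regulators MSN2 (YMR037C) and MSN4 (YKL062W), the stress genes HSP12 (YFL014W), HSP26 (YBR072W) and DDR2 (YOL052C-A), and the stress and quiescence genes XBP1 (YIL101C), RTN2 (YDL204W) and SIP18 (YMR175W). All 8 passed the filter on low counts and were tested.

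Poly-A RNA was sequenced from 12 libraries of BY4743, a diploid laboratory strain, with 4 libraries each of the ATG41 deletion (atg41), the ATG1 deletion (atg1) and the wild type (WT). ATG41, also called ICY2, encodes a protein needed for full autophagy, and ATG1 encodes the kinase that sets off autophagy, in which parts of the cytoplasm are enclosed and broken down in the vacuole. All 3 strains had been moved from medium with zinc to zinc-limiting medium for 8 h at 30 °C, so every level below is one of zinc-deficient cells. The labels do not say how many clones each deletion rests on or whether its libraries are separate cultures. The p-values thus cover only the spread between these libraries, some of it perhaps technical. In bulk RNA, fewer cells in a given state and less RNA per cell cannot be told apart.

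Libraries held 9623157 to 11247182 expected counts. ATG41 had 1 count in 1 atg41 library and 0 in the other 3, against 7145 to 8973 counts in WT, and ATG1 had 0 counts in all 4 atg1 libraries, against 988 to 1186 in WT. The a-factor genes MFA1 and MFA2, which a diploid does not use, had at most 3 and 8 counts in any library. STE2 had 182 to 205 counts in WT and RME1 had 128 to 176. Counts do not rank these genes, because counts also grow with gene length. In the authors' TPM, which are scaled per length, WT averaged 9.31 for MFA1, 5.93 for MFA2, 13.2 for STE2 and 16.2 for RME1. The MFA1 and MFA2 values rest on at most 3 counts per WT library. These levels thus do not check the diploid label. The first atg1 replicate lay apart from the other 3, with a median distance of 0.18 on the log2 scale from their mean, against 0.06 to 0.11 for the other 11 libraries from their own groups.

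The promoters are shown first, because the STRE core is what ties most of these genes to Msn2 and Msn4. Sequences and coordinates are those of RefSeq assembly R64, 1-based. In the 500 bases before the start codon, the letters AGGGG were searched on both strands, so that CCCCT counts as a match. Of the 8 promoters 6 held at least 1 match and 5 held at least 2. Among all 6000 promoters scanned 34.1% held at least 1 and 8.13% at least 2. HSP12 had 5 matches, DDR2 and XBP1 had 4 each, HSP26 had 3, SIP18 had 2 and RTN2 had 1. The promoters of MSN2 and MSN4 had 0 matches in this window. The post-diauxic shift motif AGGGAT, which shares its first 4 letters with the STRE but cannot start at the same base, was found once each before RTN2 and SIP18 and in 15.4% of all promoters. The heat shock element GAANNTTC, the motif of the factor Hsf1, was found once each before MSN4 and DDR2 and in 19.2% of all promoters. HSP26 had 0 matches to it in this window.

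**Figure D1:**
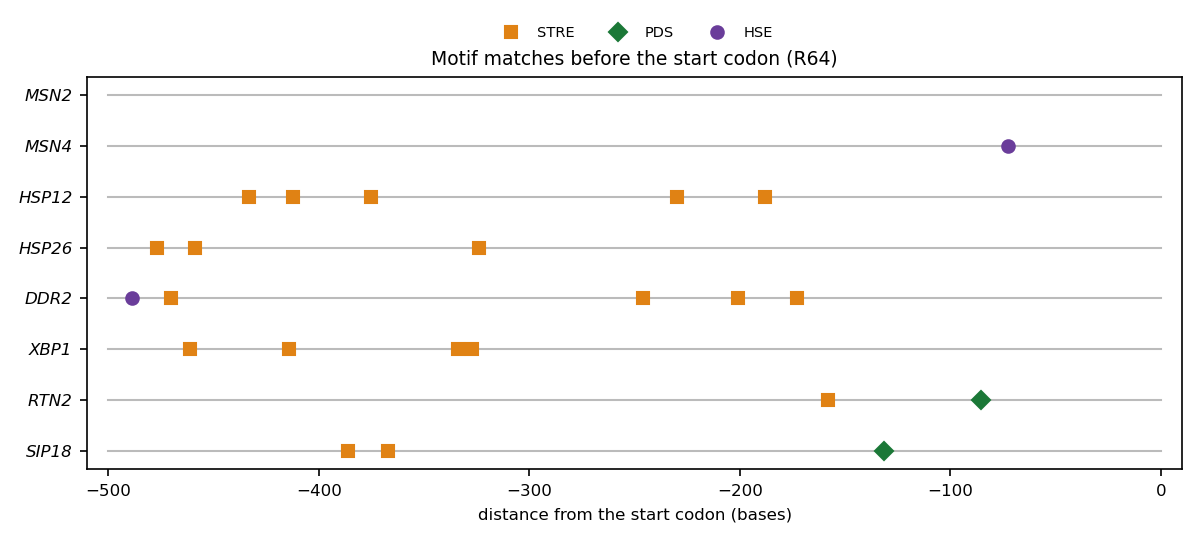
Motif matches in the 500 bases before the start codon of the 8 genes. Orange squares are the STRE core, green diamonds the post-diauxic shift motif and purple circles the heat shock element letters GAANNTTC. The horizontal axis is the distance from the start codon in bases. HSP12 holds 5 STRE matches and MSN2 and MSN4 hold 0.

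Stretches of 300 bases, beginning 400 bases before the start codon, are printed for 4 genes, 5′ to 3′ on the coding strand, with STRE matches in capitals. HSP12 and DDR2 are STRE-rich genes that did not pass the test in any comparison, and HSP26 and SIP18 are STRE genes that were lower in atg41. The HSP12 stretch (chrVI:106856-107155, plus strand) holds 3 matches and overlaps the gene YFL015C. The DDR2 stretch (chrXV:231856-232155, minus strand) holds 3, the HSP26 stretch (chrII:381630-381929, plus strand) holds 1 and the SIP18 stretch (chrXIII:610616-610915, plus strand) holds 2.
HSP12: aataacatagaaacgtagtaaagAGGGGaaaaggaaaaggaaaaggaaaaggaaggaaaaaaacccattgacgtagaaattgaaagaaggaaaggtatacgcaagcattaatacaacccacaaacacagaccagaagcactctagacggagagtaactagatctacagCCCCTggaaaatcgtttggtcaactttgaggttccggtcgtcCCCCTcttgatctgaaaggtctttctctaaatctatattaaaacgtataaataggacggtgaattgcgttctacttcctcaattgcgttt
DDR2: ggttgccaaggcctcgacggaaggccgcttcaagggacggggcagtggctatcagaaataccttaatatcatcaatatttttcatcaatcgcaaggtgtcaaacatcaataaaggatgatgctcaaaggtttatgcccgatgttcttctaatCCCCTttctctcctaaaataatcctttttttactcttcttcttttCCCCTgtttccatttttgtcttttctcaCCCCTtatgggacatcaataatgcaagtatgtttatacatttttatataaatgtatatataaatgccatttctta
HSP26: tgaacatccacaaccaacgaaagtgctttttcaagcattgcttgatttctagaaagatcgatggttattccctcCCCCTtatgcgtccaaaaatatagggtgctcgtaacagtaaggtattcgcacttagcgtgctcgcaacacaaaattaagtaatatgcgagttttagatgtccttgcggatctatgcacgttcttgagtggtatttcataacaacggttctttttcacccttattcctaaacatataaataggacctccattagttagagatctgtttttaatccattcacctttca
SIP18: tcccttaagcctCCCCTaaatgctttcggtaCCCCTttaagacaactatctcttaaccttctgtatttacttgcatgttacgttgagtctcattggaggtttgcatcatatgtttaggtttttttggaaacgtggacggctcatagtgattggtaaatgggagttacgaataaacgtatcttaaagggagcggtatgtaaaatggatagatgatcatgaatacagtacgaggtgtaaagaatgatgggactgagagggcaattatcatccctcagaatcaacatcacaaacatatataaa
The capitals show that the STRE matches lie on both strands in HSP12 and, in this stretch, on 1 strand in the other 3 genes.

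The 8 genes differed widely in abundance. In the authors' TPM, which are scaled per length and can be set side by side between genes, HSP26 and HSP12 were the most abundant of the 8 in each strain, followed by DDR2 and MSN2. WT held 1258 ± 145 TPM of HSP26, 747 ± 50.8 of HSP12, 203 ± 44.1 of DDR2 and 72.3 ± 2.09 of MSN2 (SD, n = 4). MSN4 (40.5 ± 3.82), RTN2 (35.2 ± 1.75), SIP18 (19.3 ± 3.71) and XBP1 (14.8 ± 1.03) were lower in WT, and in that order the ranges of neighbours did not overlap except for SIP18 and XBP1. In atg41 HSP12 (762.2 ± 92.1 TPM) came before HSP26 (711 ± 136) with overlapping ranges, and RTN2 (25.4 ± 2.73) before MSN4 (23.6 ± 1.24), also overlapping. DDR2 (301 ± 46.5), MSN2 (51.5 ± 2.597), XBP1 (13.7 ± 0.543) and SIP18 (10.1 ± 2.05) had ranges apart from their neighbours in atg41. In atg1 the ranges of HSP26, HSP12, DDR2 and MSN2 overlapped in turn, with 1 library, replicate 1, low in the first 3.

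Loss of ATG41 was accompanied by lower transcripts of both regulators and of 3 of the other genes. MSN2, MSN4, HSP26, RTN2 and SIP18 were lower in atg41 than in WT, HSP12, DDR2 and XBP1 did not pass the test, and 0 of the 8 were higher. The 5 of 8 called lower stand against a background of 35.9% of all 6195 genes called lower in this comparison and 65.9% called in either direction. With libraries scaled to equal totals 20.2% of all genes were higher and 45.5% lower, and 5 of the 8 were lower. The median log2 fold change of the 8 was -0.48, and that of all genes tested was -0.04. The same 5 genes had 4 atg41 libraries that all lay below the 4 WT libraries, as did 35.2% of all genes, while 30.1% of all genes had them all above and 0 of the 8 did. Loss of ATG1 gave 0 calls among the 8 genes in edgeR and 0 in DESeq2, which gave an adjusted p to 7 of them and none to SIP18. In edgeR 3.73% of all genes were called, 0.387% higher and 3.34% lower, and in DESeq2 7.23% of the genes with an adjusted p. At an unadjusted p under 0.05 there were 2 of the 8 (MSN4 and SIP18) and 21.2% of all genes. In 0 of the 8 did the atg1 libraries lie wholly above or below WT, as they did in 4.7% and 9.09% of all genes.

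**Figure D2:**
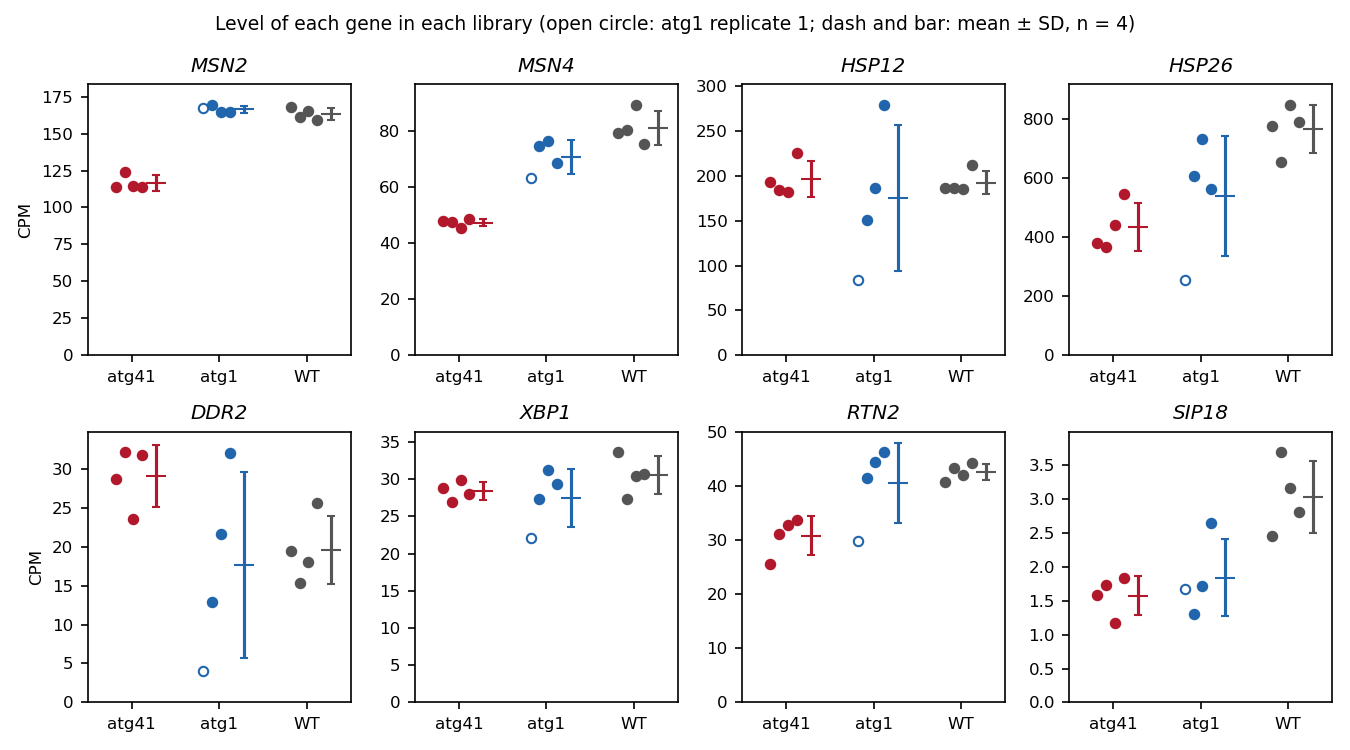
Level (CPM, which corrects counts for depth and TMM factor, on a vertical axis from 0) of each gene in each library, for atg41, atg1 and WT from left to right, with the mean and SD beside the points (n = 4). MSN2 and MSN4 in the atg41 libraries lie below the libraries of both other strains, and the open circle, atg1 replicate 1, is the lowest point for HSP12, HSP26 and DDR2.

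Levels from here on are CPM, and log2 fold changes are given ± SE from edgeR. MSN2 had 114, 124, 114 and 114 CPM in the atg41 libraries, 167, 169.7, 165 and 165 CPM in the atg1 libraries and 168, 161, 165 and 159 CPM in the WT libraries. Every atg41 library was below every other library, and atg1 and WT overlapped. MSN2 was lower by a log2 fold change of -0.49 ± 0.04 in atg41 than in WT (edgeR adjusted p = 3.28e-07) and by -0.52 ± 0.04 in atg41 than in atg1 (edgeR adjusted p = 2.03e-07), while atg1 against WT was at 0.03 ± 0.04 (edgeR adjusted p = 0.757). With libraries scaled to equal totals the last value was -0.05, also short of the test.

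MSN4, the second regulator, is known to be induced by stress, while MSN2 is made constitutively. It had 47.8, 47.7, 45.6 and 48.5 CPM in atg41, 63.4, 74.9, 76.7 and 68.7 CPM in atg1 and 79.4, 80.5, 89.6 and 75.4 CPM in WT. The atg41 libraries again lay below all others, and the highest atg1 library just overlapped the lowest WT library. The log2 fold change was -0.78 ± 0.07 in atg41 against WT (edgeR adjusted p = 2.57e-07) and -0.58 ± 0.07 in atg41 against atg1 (edgeR adjusted p = 5.18e-06). Between atg1 and WT it was -0.19 ± 0.07 and did not pass (edgeR adjusted p = 0.124), but it passed without atg1 replicate 3 (-0.25, edgeR adjusted p = 0.0478). Within a library the TPM of MSN4 was 0.473, 0.432, 0.449 and 0.479 of that of MSN2 in atg41, 0.426, 0.496, 0.524 and 0.469 in atg1 and 0.532, 0.561, 0.610 and 0.532 in WT. The ratios of all 4 atg41 libraries lay below those of all 4 WT libraries, and all 4 atg1 ratios did as well; this difference was not tested.

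HSP26, a small heat shock protein that keeps unfolded proteins from clumping, was among the most abundant of the 8 by TPM. Its levels were 382, 368, 441 and 546 CPM in atg41, 256, 607, 735 and 564 CPM in atg1 and 777, 655, 851 and 791 CPM in WT. All atg41 libraries were below WT, while atg1 overlapped both strains and its replicate 1 was the lowest of the 12. HSP26 was at -0.82 ± 0.26 in atg41 against WT (edgeR adjusted p = 0.0154), and without atg1 replicate 1, which enters through the shared spread, the value was again -0.82 (edgeR adjusted p = 4.83e-04). In atg41 against atg1 it was at -0.32 ± 0.26 and did not pass (edgeR adjusted p = 0.303), but without atg1 replicate 1 it was at -0.55 and passed (edgeR adjusted p = 0.00958), and without atg1 replicate 3 it was at -0.13 (edgeR adjusted p = 0.683). Between atg1 and WT it was at -0.51 ± 0.26 (edgeR adjusted p = 0.285), and at -0.27 without atg1 replicate 1 (edgeR adjusted p = 0.345).

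HSP12 encodes a small membrane-associated stress protein and is among the best known readouts of Msn2 and Msn4. It had 194, 185, 182 and 226 CPM in atg41, 83.7, 151, 186 and 279.7 CPM in atg1 and 187, 186, 185 and 212 CPM in WT. The atg41 and WT libraries covered nearly the same range, and the atg1 libraries reached both below and above it. HSP12 did not pass in atg41 against WT (0.03 ± 0.27, edgeR adjusted p = 0.931), and the value was -0.11 with libraries scaled to equal totals. It did not pass in atg1 against WT either (-0.14 ± 0.27, edgeR adjusted p = 0.812), where the value turned to 0.10 without atg1 replicate 1 (edgeR adjusted p = 0.823). In atg41 against atg1 it was at 0.16 ± 0.27 (edgeR adjusted p = 0.613), turning to -0.07 without atg1 replicate 1 and at 0.48 without atg1 replicate 4 (edgeR adjusted p = 0.0695).

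DDR2, a multistress response gene whose product has no well-defined function, was the most variable of the 8. It had 28.6, 32.2, 23.6 and 31.8 CPM in atg41, 4.08, 12.9, 21.6 and 32.0 CPM in atg1 and 19.4, 15.3, 17.97 and 25.6 CPM in WT. In 3 of the 4 atg41 libraries DDR2 was above all WT libraries, and the atg1 libraries ran from below all other libraries to just under the highest atg41 library. DDR2 was at 0.57 ± 0.42 in atg41 against WT and did not pass (edgeR adjusted p = 0.256). It passed in a fit of only these 2 strains, which leaves out the spread of the atg1 libraries (0.59, edgeR adjusted p = 0.00931), and it passed in the authors' deposited table (log2 fold change 0.59, FDR 6.80e-05). In atg41 against atg1 it was at 0.71 ± 0.42 (edgeR adjusted p = 0.168), at 0.38 without atg1 replicate 1 (edgeR adjusted p = 0.267) and at 1.16 without atg1 replicate 4 (edgeR adjusted p = 0.0273). In atg1 against WT it was at -0.14 ± 0.43 (edgeR adjusted p = 0.886), turning to 0.18 without atg1 replicate 1 and to 0.01 without WT replicate 4.

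XBP1 encodes a repressor that stress induces and that acts on cell cycle genes as cells become quiescent. It had 28.9, 26.9, 29.8 and 27.96 CPM in atg41, 22.1, 27.3, 31.2 and 29.3 CPM in atg1 and 33.7, 27.3, 30.4 and 30.7 CPM in WT. The 3 strains overlapped, with atg1 replicate 1 the lowest library. XBP1 did not pass in atg41 against WT (-0.11 ± 0.10, edgeR adjusted p = 0.347), although it did in a fit corrected for the composition and coding length of genes (-0.28, edgeR adjusted p = 0.0164). In atg1 against WT it was at -0.15 ± 0.10 (edgeR adjusted p = 0.376), or -0.06 without atg1 replicate 1. Between atg41 and atg1 it was at 0.04 ± 0.10 (edgeR adjusted p = 0.696), turning to -0.05 without atg1 replicate 1.

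RTN2 encodes a reticulon, a membrane protein that bends the tubules of the endoplasmic reticulum. It had 25.7, 31.2, 32.8 and 33.8 CPM in atg41, 29.9, 41.5, 44.5 and 46.4 CPM in atg1 and 40.8, 43.3, 42.2 and 44.3 CPM in WT. All atg41 libraries were below WT, and of the atg1 libraries replicate 1 alone fell within the atg41 range. RTN2 was lower by a log2 fold change of -0.47 ± 0.12 in atg41 than in WT (edgeR adjusted p = 0.00305) and by -0.40 ± 0.12 in atg41 than in atg1 (edgeR adjusted p = 0.00933). The atg1 strain against WT was at -0.07 ± 0.11 (edgeR adjusted p = 0.764), or 0.05 without atg1 replicate 1.

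SIP18, a hydrophilin known for protecting drying cells, had few counts. There were 11 to 18 expected counts per library in atg41, 13 to 29 in atg1 and 26 to 40 in WT, so counting error alone is large here. In CPM these were 1.58, 1.73, 1.16 and 1.83 in atg41, 1.67, 1.31, 1.72 and 2.65 in atg1 and 2.45, 3.69, 3.15 and 2.80 in WT. The atg41 libraries all lay below WT, and 3 of the 4 atg1 libraries did too. SIP18 was at -0.93 ± 0.24 in atg41 against WT (edgeR adjusted p = 0.00327). The value for atg1 against WT was -0.71 ± 0.23 and did not pass (edgeR adjusted p = 0.108, unadjusted 0.00854). The direct comparison of atg41 with atg1 gave -0.23 ± 0.26 (edgeR adjusted p = 0.444), and this value turned to 0.0061 without atg1 replicate 4 and to 0.030 in the corrected fit.

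**Figure D3:**
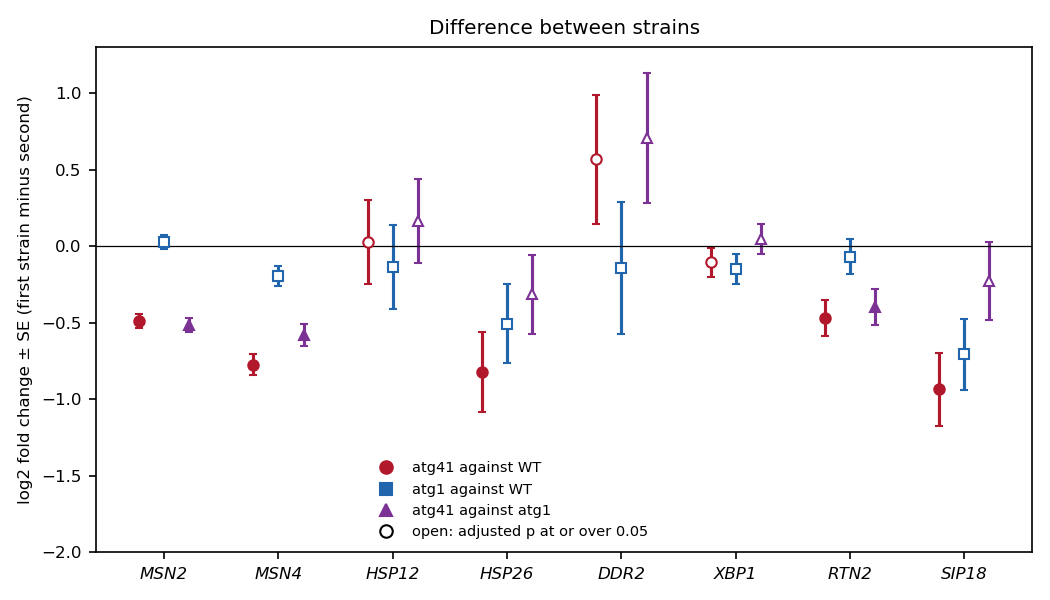
Log2 fold change of each gene with its SE (vertical axis), first strain minus second, for atg41 against WT (circles), atg1 against WT (squares) and atg41 against atg1 (triangles); filled symbols passed at an adjusted p under 0.05 in edgeR. MSN2, MSN4 and RTN2 passed in both comparisons with atg41, at -0.78 to -0.40.

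Set directly against atg1, the atg41 strain had 3 of the 8 genes lower (MSN2, MSN4 and RTN2) and 0 higher, where 33% of all genes were called lower, 31% higher and 63.9% either way. For MSN2 and MSN4 the atg41 libraries lay wholly below the atg1 libraries, as for 28.3% of all genes, and for 0 of the 8 wholly above, as for 27.9%. The median of the 8 was -0.27, and that of all genes was -0.0038. All 3 comparisons share libraries, so their values for a gene are not independent of one another. The authors' deposited tables called 6 of the 8 in atg41 against WT, the same 5 lower genes (SIP18 at FDR 0.00469) and DDR2 higher, where 68.3% of its genes were called. They called 3 of the 8 in atg41 against atg1, with 55.9% of all genes, and 0 in atg1 against WT, with 4.81%.

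The pooled SD of log2 CPM within strains was 0.04 for MSN2 and 0.10 for MSN4, against a median of 0.12 over all genes tested. It was 0.76 for DDR2, 0.43 for HSP12 and 0.42 for HSP26, and 1.19%, 3.36% and 3.45% of all genes had a larger one. SIP18 was at 0.30, RTN2 at 0.20 and XBP1 at 0.15. Without atg1 replicate 1 these fell to 0.40 for DDR2, 0.25 for HSP12 and 0.21 for HSP26, and 3.79%, 9.52% and 12.7% of all genes had a larger SD. Of the wider pathway, 46 of 51 further Msn2/Msn4 targets were lower in atg1 replicate 1 than in each of the other 3 atg1 libraries, as were 6 of the 8 genes and 38.5% of all genes. Relative to the mean of those 3, DDR2 in atg1 replicate 1 was at -2.29 on the log2 scale, HSP26 at -1.30, HSP12 at -1.25, RTN2 at -0.56, XBP1 at -0.40 and MSN4 at -0.21. MSN2 (0.01) and SIP18 (-0.11) lay within the range of the other 3. What sets this library apart was not tested.

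RTN1, HOR7 and GRE1 are the duplicate copies of RTN2, DDR2 and SIP18, and HSP42 is the other main small heat shock protein beside HSP26. All 4 were higher in atg41 than in WT, where 29.9% of all genes were. GRE1, a hydrophilin like SIP18, had 44.5 ± 1.04 CPM in atg41 and 25.6 ± 2.51 CPM in WT (log2 fold change 0.79 ± 0.13, edgeR adjusted p = 1.03e-04). HSP42 had 152 ± 14.9 CPM in atg41 and 112 ± 3.53 CPM in WT (0.44 ± 0.10, edgeR adjusted p = 0.00135). HOR7 had 66.2 ± 7.28 and 51.9 ± 2.45 CPM in atg41 and WT (0.35 ± 0.07, edgeR adjusted p = 7.11e-04).

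RTN1, the other reticulon of the pair, had 589.6 ± 32.2 CPM in atg41 and 493 ± 9.90 CPM in WT (0.26 ± 0.09, edgeR adjusted p = 0.0175). That call was lost without atg41 replicate 3 (0.23, edgeR adjusted p = 0.0508) and with libraries scaled to equal totals (0.12, edgeR adjusted p = 0.115). Within a library the TPM ratio of RTN2 to RTN1 averaged 0.0382 ± 0.0047 in atg41, 0.0546 ± 0.0156 in atg1 and 0.0630 ± 0.0028 in WT (SD, n = 4). The ratio of SIP18 to GRE1 averaged 0.103 ± 0.0205 in atg41, 0.241 ± 0.0753 in atg1 and 0.348 ± 0.0869 in WT. The ratio of HSP26 to HSP42 was 4.38, 4.89, 5.06 and 7.57 in atg41, 6.22, 11.1, 12.3 and 10.01 in atg1 and 12.9, 11.6, 14.1 and 13.0 in WT. For these 3 ratios every atg41 library lay below every WT library. This follows from the levels of the single genes and is no further result. In each pair the first gene was lower and the second higher in all atg41 libraries than in all WT libraries. The ratio of DDR2 to HOR7 averaged 0.408 ± 0.0173 in atg41, 0.356 ± 0.242 in atg1 and 0.351 ± 0.0715 in WT, with overlapping libraries.

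Of 51 further targets tested 19 were higher and 15 lower in atg41 than in WT, or 37.3% and 29.4%, against 29.9% and 35.9% of all genes. HOR7 and HSP42, given above, are among the 51 and among the 19 higher. The median log2 fold change of the 51 was 0.06. With libraries scaled to equal totals 13 were higher and 18 lower with a median of -0.08, beside a median over all genes of -0.17 under that scaling. The largest rises were in enzymes of sugar use. GLK1, glucokinase, had 2604 ± 148 CPM in atg41 and 967 ± 77.5 CPM in WT (1.43 ± 0.07, edgeR adjusted p = 5.19e-10), HXK1, a hexokinase, rose by 1.25 ± 0.07 and GRE3, an aldose reductase, by 0.93 ± 0.09. The largest falls were YGP1, a secreted cell wall glycoprotein with 146 ± 12.6 CPM in atg41 and 377 ± 34.8 CPM in WT (-1.36 ± 0.12, edgeR adjusted p = 2.57e-07), SPI1, a cell wall protein (-1.12 ± 0.08), and TFS1, an inhibitor of carboxypeptidase Y (-1.02 ± 0.10). CTT1, the cytosolic catalase and a standard STRE gene, was at -0.24 ± 0.07 (edgeR adjusted p = 0.00955), and HSP104, the disaggregase, at 0.14 ± 0.06 (edgeR adjusted p = 0.0561), both chosen after their values were seen.

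Genes listed as regulators around Msn2 and Msn4, mainly upstream of them, were lower more often than higher in atg41. The list holds genes that favour and genes that oppose protein kinase A. It also holds GIS1, IGO1 and IGO2, which need not act upstream. The split below thus has no single direction for the pathway. Of 35 regulators 18 fell and 3 rose, 51.4% and 8.57%, with a median of -0.15, against 35.9% and 29.9% of all genes. At equal totals 25 fell and 1 rose, against 45.5% and 20.2% of all genes. GLC7, a protein phosphatase catalytic subunit, had 113 ± 28.7 CPM in atg41 and 235 ± 11.2 CPM in WT (-1.05 ± 0.14, edgeR adjusted p = 3.43e-05). RAS1, a GTPase that activates adenylate cyclase, fell by 0.87 ± 0.06 on the log2 scale, and TPK3, a catalytic subunit of protein kinase A, by 0.52 ± 0.06. BCY1, the subunit that inhibits protein kinase A, had 234 ± 13.4 CPM in atg41 and 166 ± 5.90 CPM in WT (0.50 ± 0.05, edgeR adjusted p = 1.47e-06).

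Smaller rises in this group did not hold throughout. TAP42, a phosphatase partner in TOR signalling, rose by 0.22 ± 0.08 (edgeR adjusted p = 0.0310), and MSN5, the exporter that carries Msn2 out of the nucleus, by 0.16 ± 0.04 (edgeR adjusted p = 0.00369). At equal totals TAP42 was at 0.08 and MSN5 at 0.03, and neither passed. The TAP42 call was also lost without WT replicate 1 (edgeR adjusted p = 0.113), WT replicate 2 (0.103), atg41 replicate 2 (0.0633) or atg41 replicate 4 (0.0934).

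Of 12 quiescence genes, 3 of them also in the target list, 5 rose and 2 fell in atg41 (median 0.20), where 29.9% of all genes were higher and 35.9% lower. GRE1, given above as a partner, is 1 of the 5. In the fit corrected for composition and length 7 rose and 0 fell, and 36.2% of all genes were higher and 32.4% lower there. SPG4, needed for survival in stationary phase, had 7.94 ± 1.10 CPM in atg41 and 1.71 ± 0.242 CPM in WT (2.20 ± 0.20, edgeR adjusted p = 2.87e-07). SPG5, which acts on the proteasome in stationary phase, rose by 1.57 ± 0.09 and SNZ1, of pyridoxine synthesis, by 0.90 ± 0.10. MOH1 was at -0.71 ± 0.24 (edgeR adjusted p = 0.0227), and its call was lost without atg41 replicate 4 (edgeR adjusted p = 0.0523) and in the fit corrected for composition and length (-0.51, edgeR adjusted p = 0.0792). SPG3 was at -0.33 ± 0.13 (edgeR adjusted p = 0.0352), lost the call in DESeq2 (adjusted p = 0.0802), in the 2-strain fit (0.0713) and without WT replicate 1 (0.0840), WT replicate 4 (0.0602), atg41 replicate 3 (0.101) or atg41 replicate 4 (0.101), and turned to 0.25 in that corrected fit (edgeR adjusted p = 0.0996).

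None of these lists held a gene that passed in edgeR in atg1 against WT. Unadjusted p-values under 0.05 were found for 5 of the 51 targets, 5 of the 35 regulators and 1 of the 12 quiescence genes, where 21.2% of all genes had one. DESeq2 called 1 of the 49 targets, 2 of the 35 regulators and 0 of the 8 quiescence genes to which it gave an adjusted p, beside 7.23% of all genes with one. The medians were -0.08 for targets, -0.01 for regulators and -0.10 for quiescence genes, and 0.03, -0.01 and 0.01 without atg1 replicate 1.

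**Figure D4:**
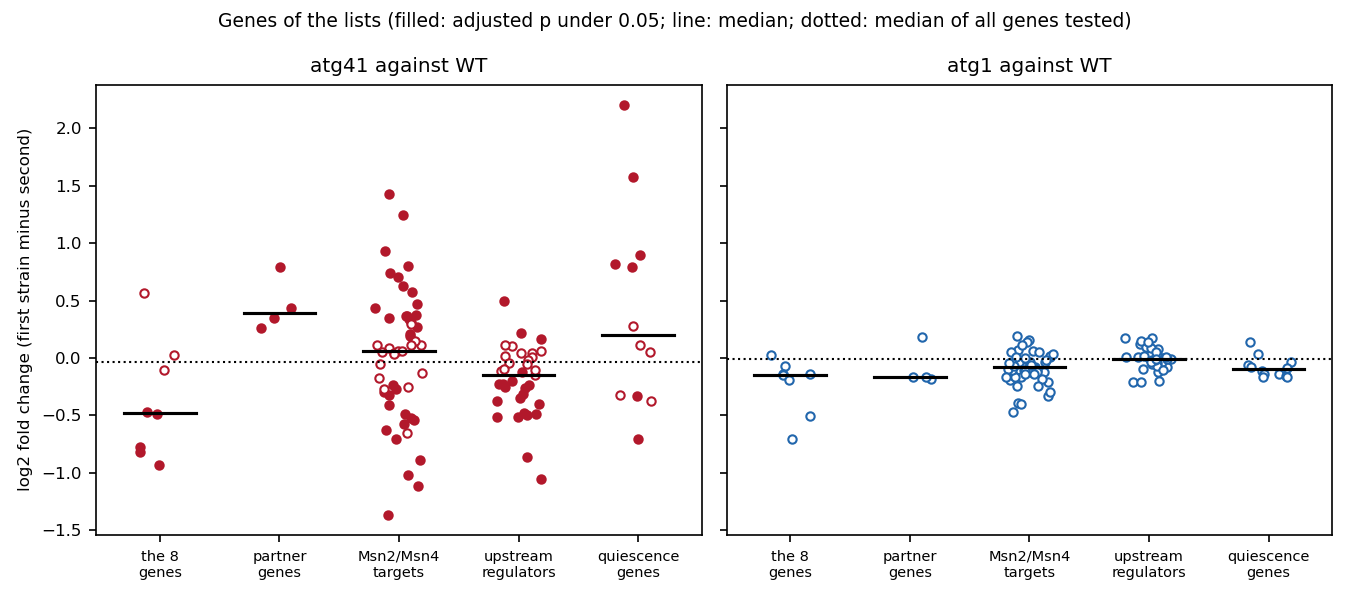
Log2 fold change (vertical axis, first strain minus second) of the genes of each list in atg41 against WT and in atg1 against WT; each point is a gene, filled where it passed in edgeR, lines are list medians and the dotted line is the median of all 6195 genes. In atg41 the targets spread from -1.36 to 1.43 around a median of 0.06, and in atg1 0 list genes are filled.

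Genes with the most similar profile over the 12 libraries were found for each of the 8 as the smallest distance between centred log2 CPM values. The nearest to HSP12 was ALD3, an aldehyde dehydrogenase gene (distance 0.362), and the nearest to HSP26 was GND2, a phosphogluconate dehydrogenase gene (0.649), both in the target list. For DDR2 it was HEF3 (1.20), for XBP1 ETR1 (0.209), for RTN2 YGK3 (0.203) and for SIP18 IST3 (0.792). For MSN2 it was YMR209C (0.160) and for MSN4 VMA10 (0.237). The second nearest, in the order of the regulators, HSP12, HSP26, DDR2, XBP1, RTN2 and SIP18, were OPI1, SNC2, HBT1, YPL185W, YMR090W, DSF2, MCM7 and YPR145C-A. Without atg1 replicate 1 only 4 of these 16 neighbours were kept, ALD3, ETR1, YGK3 and YPR145C-A, and with a prior count of 0.5 in place of 2 there were 14.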

How the data were processed

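Poly-A RNA-seq of 12 libraries was analysed. BWA, STAR, RSEM and edgeR are named, without roles, in the submitters' processing notes. The authors' genome build is not given in the sources used here. What the authors deposited is a table of expected counts, as its values show. The authors' TPM values were used for levels between genes and for ratios. The authors' deposited comparison tables give log2 fold changes and FDR p-values, and their sign was turned where the deleted gene showed that positive meant higher in WT. The table's other 12 per-sample columns match none of these samples and were left out. Expected counts (18.4% not whole) were rounded. Genes passing filterByExpr (minimum count 10, minimum total 15) numbered 6195. They were tested in edgeR 4.0.16 (R 4.3.3) with TMM factors, the robust quasi-likelihood F test, strain as the only factor and all libraries in 1 fit, adjusted by Benjamini-Hochberg over all genes with a threshold of 0.05. SE is the absolute log2 fold change over the square root of F. The fit was tested on simulated counts with 1 spread common to all genes and few changed genes, as many higher as lower. That setting differs from atg41 against WT, where most genes were called, and from the spread of the atg1 libraries. Alternatives were DESeq2 1.42.0, other scalings, no filter, 2-strain fits, a replicate block, leaving out each library and, chosen after seeing the data, removal of a composition and coding length trend. The kit does not mark strand; none of the 8 genes overlaps another RefSeq gene. Promoters are RefSeq R64 sequence before the annotated start codon. The 8 genes and the lists were chosen with earlier results of these data known. The genes named are the 8, the deleted genes, the partners, in the target, regulator and quiescence lists the 3 largest rises and falls among genes called in atg41 against WT, any called in atg1 against WT, and the 2 nearest profiles of each of the 8. CTT1, HSP104 and the mating genes named are outside this rule. Nearness is the Euclidean distance of centred log2 CPM (prior count 2).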

Additional observations from a re-analysis of the deposited data

Results flagged for a closer look

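In groups of 4 libraries, a library was singled out where its gap to the nearest other exceeded 0.829 of the group's range, which chance alone gives in about 1 of 20 groups. Of 24 groups (8 genes in 3 strains) 2 met this. MSN2 in atg41 replicate 2 was at 124 CPM, against 114 in each of the other 3 atg41 libraries, and still below every atg1 and WT library. HSP12 in WT replicate 4 was at 212 CPM, against 185 to 187 in the other WT libraries. Replicate 1 of atg1 did not meet this for HSP12, HSP26 or DDR2, where the other atg1 libraries were themselves spread.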

How the results depend on the processing

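In atg41 against WT the 5 calls among the 8 genes were 5 with each library left out in turn and under the other scalings, no filter, DESeq2 and the replicate block. DDR2 in the 2-strain fit and XBP1 with the composition and length trend removed made them 6. All genes called in those fits were 4363 of 6156 and 3931 of 5737. In atg41 against atg1 there were 3 to 4 with 1 library left out, beside 3726 of 6208 to 4049 of 6210 genes. In atg1 against WT there were 0 to 1 calls among the 8 with 1 library left out, beside 53 of 6210 to 457 of 6211 genes. Among targets in atg1 there were 0 to 1 with 1 library left out. There was 1 at equal totals, beside 378 of 6195 genes, and 1 with the composition trend removed, beside 144 of 5737. DESeq2 called 1 target and 2 regulators, beside 7.23% of all genes. In atg41 against WT the lists gave 30 to 40 targets, 18 to 23 regulators and 5 to 9 quiescence genes with 1 library left out. All genes called ran from 3817 of 6210 to 4347 of 6210 there. The highest counts, for the lists and for all genes, came without atg1 replicate 1. Values that turned were all short of the test, and SPG3 was the only one called before (0.25 with the composition trend removed). At equal totals they were HSP12 in atg41 against WT (-0.11), MSN2 in atg1 against WT (-0.054) and XBP1 in atg41 against atg1 (-0.015). With the composition trend removed they were XBP1 (-0.048) and SIP18 (0.030) in atg41 against atg1. With 1 library left out HSP12 ranged from -0.046 to 0.069 in atg41 against WT, from -0.46 to 0.096 in atg1 against WT and from -0.068 to 0.48 in atg41 against atg1. DDR2 ranged from -0.60 to 0.18 and RTN2 from -0.14 to 0.050 in atg1 against WT. XBP1 ranged from -0.045 to 0.11 and SIP18 from -0.36 to 0.0061 in atg41 against atg1. The cause of these turns was not tested. The labels do not say whether replicate numbers pair the libraries, and no clear pairing was seen. Deviations of same-numbered libraries of different strains correlated at -0.17 to 0.16, over 0.1 in 2 of 12 pairs. The best match carried the same number in 4 of 24 cases. Shared batches were not tested. The replicate block gave 5, 0 and 3 calls among the 8, as without it, beside 4000, 209 and 3864 of all 6195 genes. Counts of 11 to 40 per library limit SIP18.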

Other observations

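Across all genes tested with a promoter in R64, the number of STRE matches in the 500 bases before the start codon went with little difference in how genes stood in atg41 against WT. Of 107 genes with 3 or more matches 31.8% were higher and 30.8% lower (median log2 fold change 0.03). Of 365 genes with 2 matches 34.2% were higher and 35.6% lower (0.01), of 1493 with 1 match 32.9% and 35.4% (-0.01), and of 3768 with 0 matches 30.1% and 37.0% (-0.04). In atg1 against WT 1 gene rose and 0 fell among the 107, beside 0.384% higher and 3.49% lower of all 5733 genes with a promoter. These shares are a description and were not tested.

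Mating and haploid genes, which a diploid represses, differed in level, and some were lower in atg41. In WT RME1 (16.2 TPM), STE18 (15.6 TPM) and STE2 (13.2 TPM) were near XBP1 (14.8 TPM). MFA1 was at 9.31 TPM and MFA2 at 5.93 TPM, from at most 2 and 3 counts per WT library. GPA1 was at 5.85 TPM, BAR1 at 3.35 TPM, STE3 at 2.92 TPM, FUS3 at 1.48 TPM and HO at 1.1 TPM. Of 10 listed 8 had enough counts, and 5 fell and 1 rose in atg41 against WT, where 35.9% of all genes were lower and 29.9% higher. The examples were chosen after their values were seen. STE3, the a-factor receptor gene, had 1.59 ± 0.638 CPM in atg41 and 4.31 ± 0.585 CPM in WT (log2 fold change -1.42 ± 0.25, edgeR adjusted p = 1.77e-04). STE2, the alpha-factor receptor gene, had 9.10 ± 0.826 CPM in atg41 and 17.7 ± 0.804 CPM in WT (-0.96 ± 0.13, edgeR adjusted p = 1.50e-05). BAR1, which encodes the protease that degrades alpha-factor, rose by 0.50 ± 0.14.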
